A study of Arabidopsis thaliana with 7 samples.

Results

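The cellulose synthase (CESA) genes of *Arabidopsis thaliana* were read from the RNA-seq counts of wild-type seedlings. The members were the 10 genes CESA1 to CESA10, taken by locus identifier, and all 10 were found among the 33602 genes of the table. Of these, CESA1, CESA3 and CESA6 form the primary wall set, CESA4, CESA7 and CESA8 the secondary wall set, and CESA2, CESA5, CESA9 and CESA10 are the remaining 4 members. The RNA came from 3 replicate libraries of whole seedlings of Col-0, the reference accession, with a wild-type genotype and no transgene or drug. The plants were 14 days old and had been held at 22 °C on MS medium, in days of 16 h light and nights of 8 h. The study set out to relate transcription to H3K4 methylation in these plants, and its 4 chromatin libraries were not analysed here. All 3 RNA libraries belong to a single group, so the comparisons below are between genes within a library and between replicate libraries, not between conditions.

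Cellulose is made at the plasma membrane by rosette-shaped complexes of CESA proteins, each of which links glucose from UDP-glucose into a glucan chain. In growing cells a complex needs CESA1, CESA3 and a CESA6-type subunit, and CESA2, CESA5, CESA6 and CESA9 can fill that last position to different degrees. Cells that lay down a thick secondary wall, such as xylem vessels and fibres, use CESA4, CESA7 and CESA8 instead. CESA10 is the closest relative of CESA1. The 10 proteins are of similar size.

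The libraries held 30946664, 18493022 and 20764970 counts assigned to genes in replicates 1, 2 and 3. Levels are given as CPM, counts scaled to a common library total after TMM scaling of the library totals, and as mean ± SD over the libraries. They are not corrected for transcript length, so a small difference between genes is a difference in counts and need not be one in transcript number. Markers of leaf and root were both present, with RBCS1A (leaf Rubisco) at 10326 ± 475 CPM and PYK10 (a root and hypocotyl glucosidase) at 2385 ± 9.71 CPM, while the floral gene AG had 0, 2 and 2 counts. Nothing in the labels tells if replicates were plants grown apart, so p-values here cover only how far the samples lie apart, which may be technical. In these bulk samples, fewer cells of a type and less RNA per cell cannot be told apart.

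Of the 10 members, 9 reached a mean of 1 CPM, against 56.3% of all genes in the table. At or above 100 CPM stood 5 members, against 5.9% of all genes. The members spanned from CESA1, at a higher level than 98.8% of the 18915 expressed genes, to CESA10, which had 2 counts in replicate 1 and none in the other libraries. In the plot of CESA levels by library the order from the highest mean down was CESA1, CESA3, CESA6, CESA2, CESA5, CESA4, CESA7, CESA8, CESA9 and CESA10, and the values of neighbours in that order did not overlap. The closest neighbours were CESA2 and CESA5, CESA7 and CESA8, and CESA1 and CESA3, with ratios of means from 1.07 to 1.09, and CESA5 was 6.47 times CESA4.

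**Figure D1:**
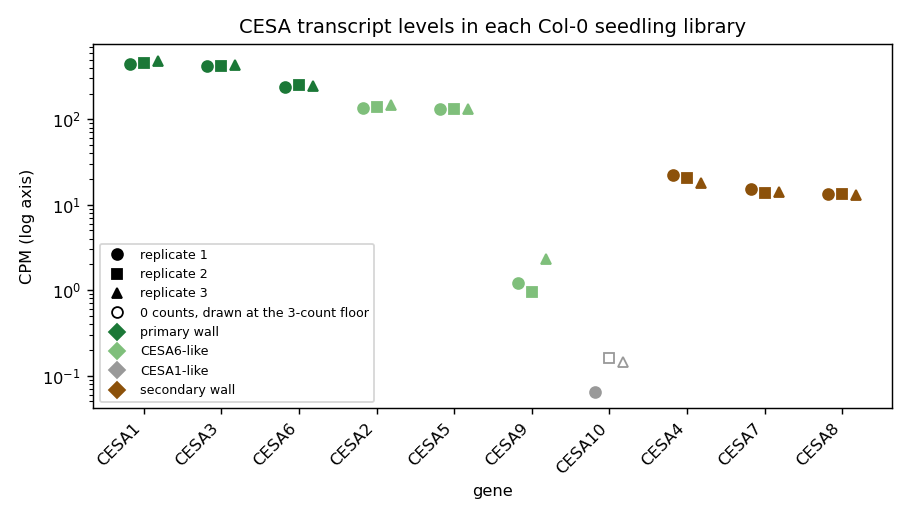
CPM on a log axis for each CESA gene (x axis) in each of the 3 Col-0 libraries (marker shapes), coloured by wall type; open markers are libraries with 0 counts, drawn at the CPM of 3 counts. The secondary wall genes sit between 13.0 and 22.1 CPM, all below CESA5, and only CESA9 and CESA10 lie lower.

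CESA1 (AT4G32410), the RSW1 gene, whose loss disrupts cellulose synthesis and makes roots swell, had 13688, 8497 and 9988 counts in replicates 1, 2 and 3. These are 442, 454 and 486 CPM, or 461 ± 22.8 CPM (SD, n = 3). CESA3 (AT5G05170, CEV1 in the gene table), the other obligatory primary wall subunit, stood at 419, 418 and 436 CPM, or 424 ± 10.2 CPM. CESA1 exceeded CESA3 in each of the 3 libraries, by 1.06 to 1.12 times. The lowest CESA1 value lay only just above the highest CESA3 value, and without transcript lengths the order of these genes cannot be read as an order of transcript number.

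CESA6 (AT5G64740), the PROCUSTE gene of hypocotyl and root elongation, stood at 240, 250 and 247 CPM, or 246 ± 5.19 CPM. It was lower than CESA3 in all 3 libraries, and the ratio of CESA3 to CESA6 was 1.73 ± 0.0517. In the sum of the primary wall set, CESA1 held 40.8 ± 0.763%, CESA3 37.5 ± 0.445% and CESA6 21.7 ± 0.608%.

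CESA2 and CESA5 came next, and they resemble CESA6 and can in part replace it. CESA2 (AT4G39350) stood at 135, 141 and 145 CPM, or 140 ± 5.20 CPM. CESA5 (AT5G09870), also known for the cellulose of seed coat mucilage, stood at 132, 130 and 130 CPM, or 131 ± 0.723 CPM. CESA2 was the higher of these in each library, by 1.03 to 1.12 times, and the gap of 9.52 CPM between the means was 1.83 times the SD of CESA2. This pair is thus close in counts, whereas CESA6 was 1.75 ± 0.0482 times CESA2.

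CESA9 (AT2G21770), a CESA6-type gene known from the seed coat epidermis, was far below its relatives, with 38, 18 and 48 counts. Its level was 1.23, 0.962 and 2.34 CPM, or 1.51 ± 0.730 CPM, so it lay under 1 CPM in replicate 2 and above it in the others. CESA10 (AT2G25540), with 2, 0 and 0 counts, was under the floor of 3 counts in every library. That floor is 0.0970, 0.160 and 0.146 CPM in replicates 1, 2 and 3, and the exact 95% Poisson interval of the pooled CESA10 level ran from 0.00345 to 0.103 CPM. Expression of CESA10 was therefore not detectable at this depth. The Poisson interval takes each count as an independent molecule, which the low counts of this table may not be.

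Added up by position in the primary wall complex, the 3 subunit classes came to much more similar levels than the single genes. The sum of CESA2, CESA5, CESA6 and CESA9 was 508, 522 and 525 CPM, or 518 ± 9.06 CPM, against 461 ± 22.8 CPM for CESA1 and 424 ± 10.2 CPM for CESA3. Within this sum CESA6 held 47.4 ± 0.479%, CESA2 27.1 ± 0.582%, CESA5 25.3 ± 0.586% and CESA9 0.291 ± 0.137%. Of the summed level of the 7 members outside the secondary wall set, the CESA6 type held 36.9 ± 0.617%, CESA1 with CESA10 32.8 ± 0.690% and CESA3 30.2 ± 0.323%. The CESA6-type sum was 1.13 ± 0.0408 times CESA1 and 1.22 ± 0.0246 times CESA3, and it was the higher in each of the 3 libraries. These are ratios of counts, with the limit on length given above.

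**Figure D2:**
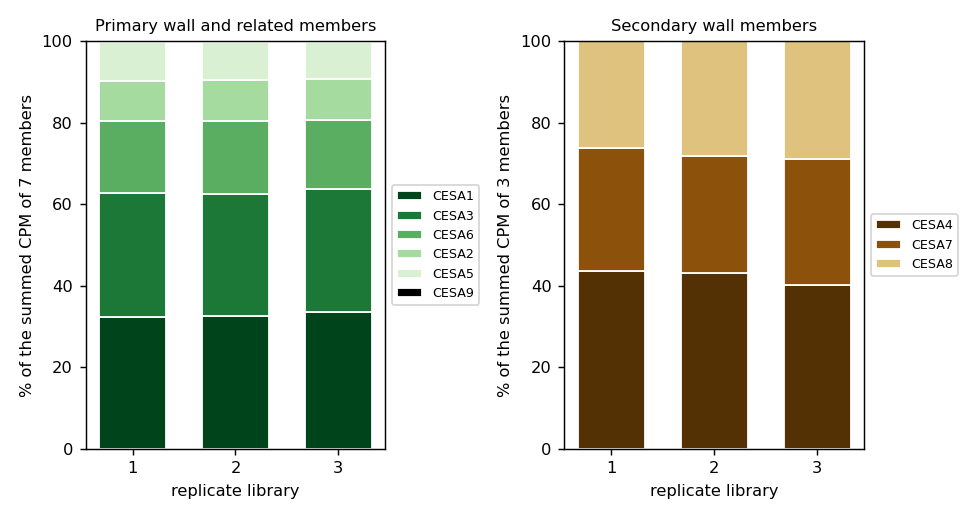
Stacked shares (%) of the summed CPM in each replicate library, for the 7 members outside the secondary wall set (left) and for CESA4, CESA7 and CESA8 (right). Each colour is 1 gene. CESA9 is too low to be seen, and CESA10 is not drawn. CESA1 and CESA3 take similar shares, and the CESA6-type genes together take 36.3 to 37.5%.

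The secondary wall set stood an order of magnitude lower. CESA4 (AT5G44030, known as IRX5) had 684, 384 and 371 counts, which are 22.1, 20.5 and 18.1 CPM, or 20.2 ± 2.03 CPM. CESA7 (AT5G17420, IRX3 in the gene table) had 473, 254 and 288 counts, at 15.3, 13.6 and 14.0 CPM, or 14.3 ± 0.887 CPM. CESA8 (AT4G18780, IRX1 in the gene table) had 408, 250 and 266 counts, at 13.2, 13.4 and 13.0 CPM, or 13.2 ± 0.204 CPM. Mutants of these genes have collapsed xylem, from which the irregular xylem (IRX) names come.

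CESA4 was above CESA7 in every library, by 1.29 to 1.51 times. CESA7 and CESA8 were close, with a ratio of 1.02 to 1.16 and a gap of 1.13 CPM between the means, next to an SD of 0.887 CPM for CESA7. Within the set CESA4 held 42.4 ± 1.96%, CESA7 30.0 ± 1.28% and CESA8 27.7 ± 1.41%. In the RefSeq gene table CESA4 overlaps its neighbours AT5G44020, with 6805, 3926 and 4696 counts, and AT5G44040, with 414, 301 and 279 counts. No source used here says how reads in such overlaps were assigned, so the part of the neighbours in the CESA4 counts was not tested. CESA1, CESA3, CESA7, CESA8 and CESA10 overlap a neighbour as well, and CESA2, CESA5, CESA6 and CESA9 overlap none.

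The comparison of primary with secondary wall genes gave the same direction in every library. The sum of CESA1, CESA3 and CESA6 was 1101, 1122 and 1169 CPM in replicates 1, 2 and 3, and the sum of CESA4, CESA7 and CESA8 was 50.6, 47.5 and 45.1 CPM. The sums did not overlap, and within a library the primary sum was 21.8, 23.6 and 25.9 times the secondary sum. On the log2 scale the difference was 4.57 ± 0.13 (SD, n = 3), far beyond the spread between libraries. An exact sign-flip permutation test (two-sided) gave p = 0.25, the smallest value that 3 libraries allow. The difference did not rest on a single gene, since in all 9 pairs of a primary and a secondary gene the primary gene was higher in all 3 libraries, by 10.9 to 37.5 times. With all 7 members outside the secondary wall set, the log2 difference was 4.88 ± 0.12, and the secondary wall set held 3.29 ± 0.272% of the counts of the family.

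**Figure D3:**
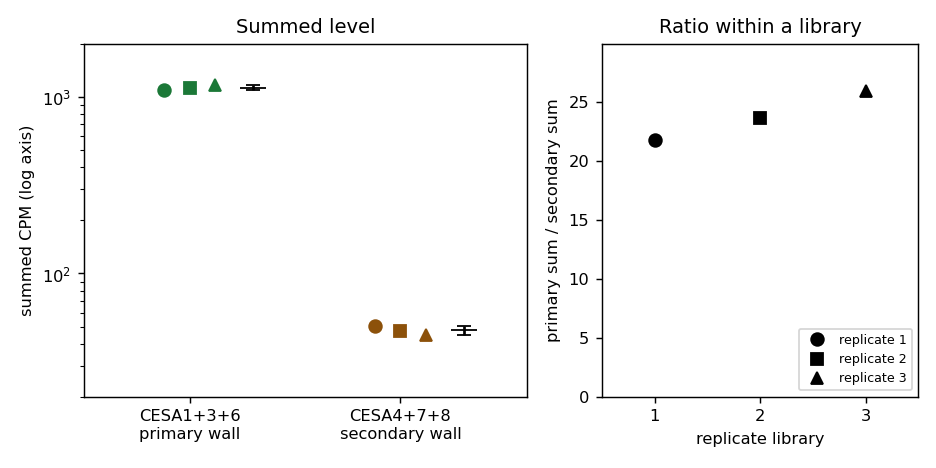
Left, summed CPM (log axis) of the primary and the secondary wall set in each library (marker shapes), with the mean and SD as a black bar; right, the ratio of the sums within each library on a linear axis from 0. The primary sums sit between 1101 and 1169 CPM and the secondary sums between 45.1 and 50.6 CPM, a ratio of 21.8 to 25.9.

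The replicate libraries agreed closely on most members. The coefficient of variation was 4.95% for CESA1, 3.71% for CESA2, 2.40% for CESA3, 2.11% for CESA6 and 0.552% for CESA5. In the secondary wall set it was 10.1% for CESA4, 6.21% for CESA7 and 1.55% for CESA8, and it was 48.3% for CESA9. Genes within 0.25 log2 units of the mean level of CESA1 had a median of 3.36%, those near CESA4 a median of 6.99%, those near CESA8 a median of 8.54% and those near CESA9 a median of 24.9%. CESA1, CESA4 and CESA9 thus lay above the median of genes of their level, and the other 6 expressed members below it. For CESA2 the values were nearly equal, at 3.71% against a median of 3.76%.

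**Figure D4:**
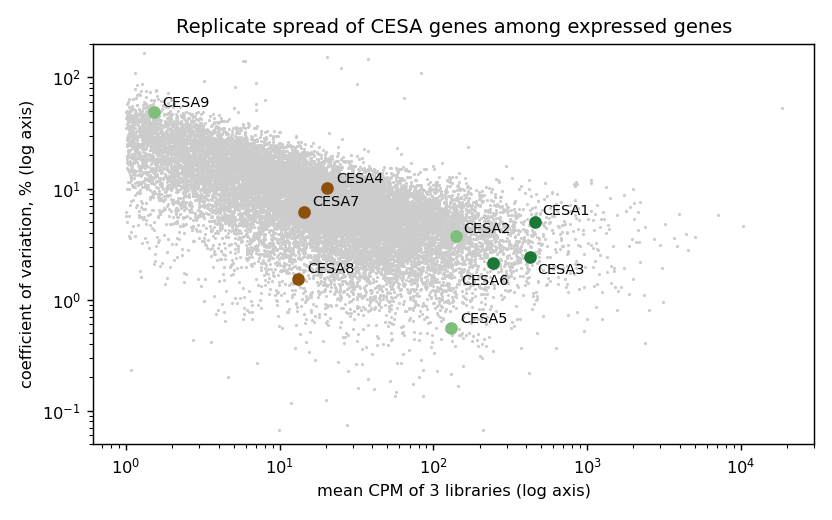
Coefficient of variation over the 3 libraries (%, log axis) against mean CPM (log axis) for expressed genes (grey points) and the 9 expressed CESA members (coloured by wall type as in the plot of CESA levels). CESA9 at 48.3% and CESA4 at 10.1% lie above the middle of the cloud at their level, and CESA5 at 0.552% and CESA8 at 1.55% lie at its lower edge.

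None of the 9 expressed members varied beyond genes of its own level (edgeR goodness-of-fit, dispersion set to the trend with level, adjusted p = 0.9999 for each), against 0.148% of all 18915 genes tested. Before adjustment 1 of the 9 members, CESA9, was under 0.05, against 872 of all 18915 genes tested. CESA9 was highest in replicate 3. Against counting error alone, 5 of the 9 members varied, against 32.8% of all genes tested. Among genes of at least 100 CPM that share was 60.5%, and 3 of the 5 members in that class varied. The members were CESA1 (edgeR goodness-of-fit with dispersion 0, adjusted p = 2.28e-10), CESA9 (0.0058), CESA3 (0.022), CESA4 (0.026) and CESA2 (0.028). With halved counts only CESA1 of these was still called, and without replicate 3 none was. Low counts in this table were mostly even (84.5 to 86.2% of counts from 1 to 19). Of the 13 nonzero counts of CESA4, CESA7, CESA8, CESA9 and CESA10, 11 were even, against 7 of the 15 counts of the other members. Most of those 13 counts were above 19, and the even share over all genes was not taken at that size. Counts at any level may not be independent molecules, and the p-values against counting error assume that they are.

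The sums of the wall types differed in opposite ways between libraries, by small amounts that were not tested. The primary sum was lowest in replicate 1 and highest in replicate 3, and the secondary sum was highest in replicate 1 and lowest in replicate 3. CESA1 carried most of the first difference, at 442 against 486 CPM, and CESA4 most of the second, at 22.1 against 18.1 CPM, while CESA5 and CESA8 were nearly level. rRNA genes held 1.20, 1.39 and 2.97% of the counts of replicates 1, 2 and 3, and the part of this in the CESA values was not tested.

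Genes listed as partners of primary wall cellulose synthesis, which include receptor-like kinases outside the complex, ranged from no count to the level of CESA1. Of the 15 kept in the list, 12 were expressed, against 56.3% of all genes, and 5 reached 100 CPM, against 5.9% of all genes. The median of the 15 was 36.8 CPM, against a median of 19.1 CPM over all expressed genes and 2.95 CPM over the whole table. The highest were CTL1 (AT1G05850, POM1 in the gene table), a chitinase-like protein needed for cellulose deposition, at 467 ± 26.3 CPM, KOR1 (AT5G49720), a membrane-bound endoglucanase of the complex, at 367 ± 8.28 CPM, and CSI1 (AT2G22125), which ties the complex to microtubules, at 189 ± 18.3 CPM. CTL1 was the only one of the 15 above the mean of CESA1, against 221 of the 33602 genes of the table. At the other end, the CSI1 relative CSI2 had 4, 2 and 0 counts, and SHOU4 (AT1G78880) and SHOU4L (AT1G16860), which restrain delivery of CESA proteins to the membrane, were listed at 0 in every library. The gene table gives no name for either identifier, so the match of these names to the rows could not be checked and the zeros are uncertain. The summed level of the partners was 1547, 1579 and 1619 CPM, lowest in replicate 1 and highest in replicate 3. Gene by gene, 4 of the 12 expressed partners were highest in replicate 3 and 5 in replicate 2, against 33.0% of all expressed genes in replicate 3.

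Enzymes that supply UDP-glucose were all expressed, 10 of 10, against 56.3% of all genes, with a median of 24.4 CPM. The pyrophosphorylase gene UGP1 stood at 153 ± 8.82 CPM, the cytosolic invertase gene CINV1 at 107 ± 0.783 CPM and UGP2 at 47.9 ± 1.38 CPM. The lowest were the sucrose synthase genes SUS6 at 5.66 ± 0.882 CPM, SUS5 at 3.61 ± 0.700 CPM and SUS2 at 1.57 ± 0.230 CPM.

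The genes that act beside CESA4, CESA7 and CESA8 in xylem and secondary walls were all expressed, 18 of 18, against 56.3% of all genes. They lay between 2.01 and 47.2 CPM, with a median of 8.48 CPM, and none reached 100 CPM, against 5.9% of all genes. CESA4, CESA7 and CESA8 lay in the middle of the expressed genes, above 51.5%, 42.2% and 40.0% of them. XCP2, a protease of xylem vessels, stood at 47.2 ± 4.51 CPM, and the xylan synthesis genes IRX14 and PARVUS at 31.6 ± 0.457 and 23.1 ± 1.14 CPM. The lowest were COBL4 (IRX6 in the gene table), needed for secondary wall cellulose, at 3.71 ± 0.315 CPM, and the xylan genes GAUT12 at 3.70 ± 0.909 CPM and IRX15 at 2.01 ± 0.231 CPM. CESA8 was exceeded by 5 of the 18, against 11342 of the 18915 expressed genes. The summed level of the 18 genes was 224, 219 and 210 CPM, highest in replicate 1 and lowest in replicate 3. Gene by gene, 8 of the 18 were highest in replicate 1 and 6 in replicate 3, against 33.3% and 33.0% of all expressed genes, so the 18 genes were not all highest in the same library.

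Transcription factors that control secondary wall genes, activators and repressors, had a median of 1.22 CPM over 17 genes, against 2.95 CPM over the whole table. Of the 17, 10 were expressed, a share close to the 56.3% of all genes. VNI2 (AT5G13180), a NAC factor that represses vessel formation, stood alone at 73.4 ± 3.31 CPM. Below it came the vessel factor genes VND4 at 3.33 ± 0.449 CPM and VND3 at 2.41 ± 0.163 CPM, with the master regulators VND7 at 1.03 ± 0.426 CPM and MYB46 at 1.22 ± 0.516 CPM. Both lay above 1 CPM in replicate 1 only, with VND7 at 1.49, 0.641 and 0.974 CPM and MYB46 at 1.81, 0.962 and 0.877 CPM. VND7 and MYB46 were named after their values were seen. The fibre factor genes were lowest, with 2, 0 and 0 counts for NST1, 0, 0 and 3 counts for NST2, and no count for NST3, which allows up to 0.160 CPM in the library where a count is worth most.

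Genes of seed coat mucilage, for which CESA5 is also known, were at 1 CPM or more in 3 of 5 cases, close to the 56.3% of all genes. Their median was 5.005 CPM. The broadly used enzyme genes MUM2 and MUM4 stood at 131 ± 2.79 and 70.8 ± 2.22 CPM, and COBL2 at 5.005 ± 1.06 CPM. PMEI6 (AT2G47670) was at 0.972 ± 0.167 CPM, and PER36 (AT3G50990) had no count in any library. In these lists, no gene varied beyond genes of its level (the same edgeR test on the trend, threshold 0.05), against 0.148% of all genes tested. With so low a share over all genes, the absence of calls says little about the lists.

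**Figure D5:**
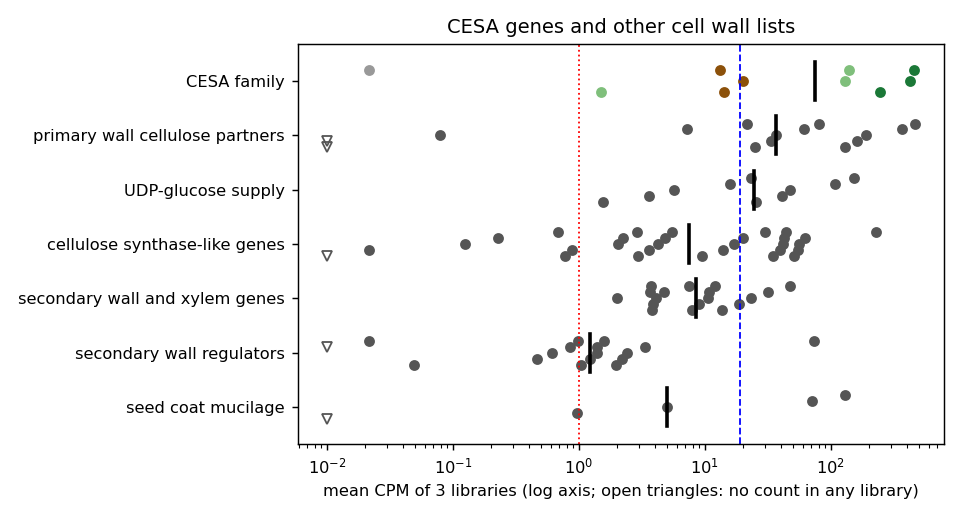
Mean CPM over the 3 libraries (log axis) of each gene in the CESA family and in 6 other cell wall lists (rows); black bars are list medians, the dotted line is 1 CPM, the dashed line is the median of expressed genes at 19.1 CPM, and open triangles are genes with no count. The CESA family has the highest median (75.5 CPM) of the lists shown and the secondary wall regulators the lowest (1.22 CPM). The CESA median falls in the gap between CESA5 (131 CPM) and CESA4 (20.2 CPM), where no member lies.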

How the data were processed

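The authors deposited raw counts per gene for 33602 genes, 1 column per RNA library. The submitters' processing notes name featureCounts, HISAT2, cutadapt, deepTools 3.5.1, SAMtools 1.13 and Bowtie2 2.4.5, and the TAIR10 build, without saying what each was used for. The library kit was stranded, per the labels' protocols. The annotation release, strand setting and treatment of multi-mapping or paired reads were not given in the sources used here. Hence reads shared by similar members, overlapping neighbours or antisense transcripts may be split unevenly.

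TMM-scaled CPM (counts per library total) came from edgeR 4.0.16 (R 4.3.3), with DESeq2 1.42.0 size factors as an alternative. Expressed means a mean of at least 1 CPM. Levels were planned per coding length, but coding lengths were not used here. No sequence was used here either.

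Replicate spread was tested with edgeR's goodness-of-fit test (intercept-only model) over all 18915 expressed genes, with Benjamini-Hochberg adjustment at 0.05, with dispersion 0 or the trended dispersion. The trended test was simulated for 18915 genes with 1 library changed. Recovery was 6 of 50 genes at 1.5-fold, 37 of 50 at 2-fold, 48 of 50 at 4-fold and 50 of 50 at 8-fold. There were 2 calls among 18715 unchanged genes. The simulated counts were independent and followed the same trended dispersion that the test assumes, with changed genes drawn from all levels. These rates therefore need not hold for the real counts, or for a gene as low as CESA9.

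Symbols came from a RefSeq gene table of TAIR10.1 (32835 identifiers matched). A list gene was kept where the table gives that name or none (punctuation ignored), which left 102 of 105 and removed CMU1, CMU2 and CMU3, carried there as KLCR1 to KLCR3. All members and, per cell wall list, the 3 highest and 3 lowest genes are named. In the list used to check the tissue label, 5 of 7 genes were expressed, against 56.3% of all genes. Only RBCS1A, PYK10 and AG of that list are given with values. The members and lists were chosen with earlier results of these data known. Intervals and floors (3 counts) cover counting error only. Alternatives were other scalings, filters, halved counts and leaving out each replicate.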

Additional observations from a re-analysis of the deposited data

How the results depend on the processing

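The primary minus secondary difference (4.50 to 4.88 on the log2 scale), the 9 ordered pairs, the 9 expressed members and the CESA6-type share (36.7 to 37.3%) kept their direction and size under each alternative run, as did the list members expressed (74 to 83 against 76). The count of members varying beyond counting error did not hold. It was 1 with halved and rounded counts and ranged from 0 to 5 when each replicate was left out in turn. It was 3 without replicate 1 (CESA1, CESA3 and CESA9) and 0 without replicate 3. Over all genes the same test called 6197, and 1211 with halved counts, 2964 without replicate 1, 3862 without replicate 2 and 3172 without replicate 3. The halving itself lowers the counts. With unscaled library totals it was again 5, with CESA6 in place of CESA3. No member varied beyond genes of its level under any alternative run; that test called 28 genes of all tested, 19 without replicate 1 and 6 without replicate 3. Scaling cannot change ratios within a library, so those alternatives do not bear on them. Plain CPM was the only level available, so the planned comparison with levels per coding length was not run. No paired analysis was possible because the series has only 1 replicated group, so no replicate numbers are shared between groups; the primary against secondary comparison is itself taken within each library. Depth limits CESA9 and CESA10, and the regulators of low level.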

Other observations

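The cellulose synthase-like (CSL) genes, the nearest relatives of the CESA family, include genes that make other wall polysaccharides, and for some the product is not settled. The median over 30 CSL genes was 7.52 CPM, 23 of them reached 1 CPM (against 56.3% of all genes), and all 30 lay below CESA1. Over the whole table only 221 of 33602 genes lay above CESA1. CSLE1 (AT1G55850) led at 228 ± 9.55 CPM, near CESA6 in counts. The next were the mannan synthesis genes CSLA02 at 62.1 ± 2.13 CPM and CSLA09 at 56.2 ± 2.85 CPM. Summed by family, the CSLC genes, known for the xyloglucan backbone, reached 166 ± 3.80 CPM with 5 of 5 expressed, and the CSLA genes 173 ± 7.33 CPM with 8 of 9 expressed.

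The CSLD genes, the closest to CESA in sequence and known for tip-growing cells and cell plates, reached 124 ± 4.76 CPM. Of these, 3 of 6 were expressed, close to the 56.3% of all genes. CSLD3, needed for root hairs, stood at 42.8 ± 2.38 CPM, CSLD5 at 41.5 ± 2.80 CPM and CSLD2 at 39.6 ± 1.82 CPM. CSLD3, CSLD5 and CSLD2 were named after their values were seen. CSLD1 and CSLD4, known from pollen tubes, had 2, 4 and 2 counts and no count, and CSLD6 had 2, 0 and 0 counts. The CSLB and CSLG families summed to 68.7 ± 0.722 and 16.0 ± 0.989 CPM.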
